A study of Mus musculus with 2 samples.

Results

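Molecular chaperones are proteins that help other proteins fold, keep them soluble and hand them on for repair or destruction. Hsp70 proteins bind exposed stretches of a client in a cycle driven by ATP, J-domain proteins (the Dnaj genes) bring clients and start that cycle, and nucleotide exchange factors such as the Bag proteins and the Hsp110 proteins end it. Hsp90 takes over clients from Hsp70 through the adaptor Stip1, the ring-shaped CCT complex folds actin and tubulin, and heat shock factor Hsf1 switches on many of these genes under stress.

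The genes described here were chosen by name: all genes on the array whose name marks an Hsp70, Hsp90, small heat shock, Hsp60, Hsp10 or Hsp110 protein, a J-domain protein of class a, b or c, a Bag protein or a CCT subunit, together with Hsf1, Hsf2, Stip1, St13, Ahsa1, Stub1 and Tcp1. Hspbap1 was left out. This gave 94 genes with 134 probes, out of 35019 gene names on the array. The RNA came from sorted spinal cord microglia, the brain and cord's own macrophages, taken either from control animals or from a mouse model of atopic diathesis, a tendency towards allergic disease. There was 1 array per group, so the study holds 2 arrays of total RNA labelled with Cy3. The submitters' titles call the control cells normal and the model's cells activated. Strain, age, how the model was made and the number of mice in a sample are not given in the sources used here.

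A single array stands for each group, so the differences have no replicate check and could not be tested. Signals are the scanner software's background-subtracted intensities in arbitrary units. A gene was measured where at least 1 of its 60-base probes was well above background on both arrays. Its log2 difference is atopic diathesis minus control, relative to the median measured gene, which lies at 0. Probes printed repeatedly on each array gave a 95% interval of ±0.26 for a log2 difference of probes with a mean signal of 100 or more (66 probes), and of ±0.58 below that (35 probes). These intervals cover spot error only and leave out the spread between mice, sorts and RNA amplifications. In bulk RNA, fewer cells of a type and less RNA per cell cannot be told apart.

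All 12 microglia markers checked were measured and lay within 2-fold, among them P2ry12 and Tmem119, with a median of -0.09. The summed signal of the brightest probes of the 6 astrocyte markers was 808 in control and 1022 in atopic diathesis, that of the 8 oligodendrocyte markers 1074 and 1054, and that of the 5 endothelial markers 348 and 150. Single markers differed within these sums: of the endothelial ones Flt1 read 328 and 5.07 and Pecam1 5.64 and 127, and of the astrocyte ones Gja1 read 10.4 and 241 while Slc1a3 read 689 and 667. None of 13 blood and border leukocyte markers was above background on either array, and of 9 neuron markers only Snap25 was, at 82155 and 84015. The part of other cells in the values below was not tested.

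Of the 94 genes, 51 were measured (54.3%, against 26.3% of all gene names). Among these, 15 were at least 2-fold higher in atopic diathesis microglia and 13 at least 2-fold lower, which is 29.4% and 25.5% where all measured genes gave 17.3% and 15.6%. Together 28 of 51 (54.9%) lay past 2-fold, beside 32.9% of all measured genes. Their median was 0.03, beside 0 for all genes. Members lay above the median gene in 26 cases and below it in 25. With each array's 75th percentile over all its probes as the reference, a value among dim probes that put the median measured gene at -0.50, the split was 11 higher and 18 lower (37.9% higher, against 53.6% on the main scale). All measured genes moved with that reference too, from 52.6% higher to 28.3%. At least 8-fold differences numbered 4 (7.84%, beside 4.25% of all measured genes). The higher ones were Stip1, Dnajc15 and Hspb1, where 2.37% of all measured genes were as high, and the lower one was Hsf2, where 1.89% were as low. With normexp background correction or uncorrected signals, Stip1 alone stayed past 8-fold (1.26% and 0.966% of all genes did), while Dnajc15 read 2.93 and 2.75, Hspb1 2.25 and 2.04, and Hsf2 -2.96 and -2.77. Of the 51, 5 lay inside the spot interval of their signal class, and the share over all measured genes was not computed.

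**Figure D1:**
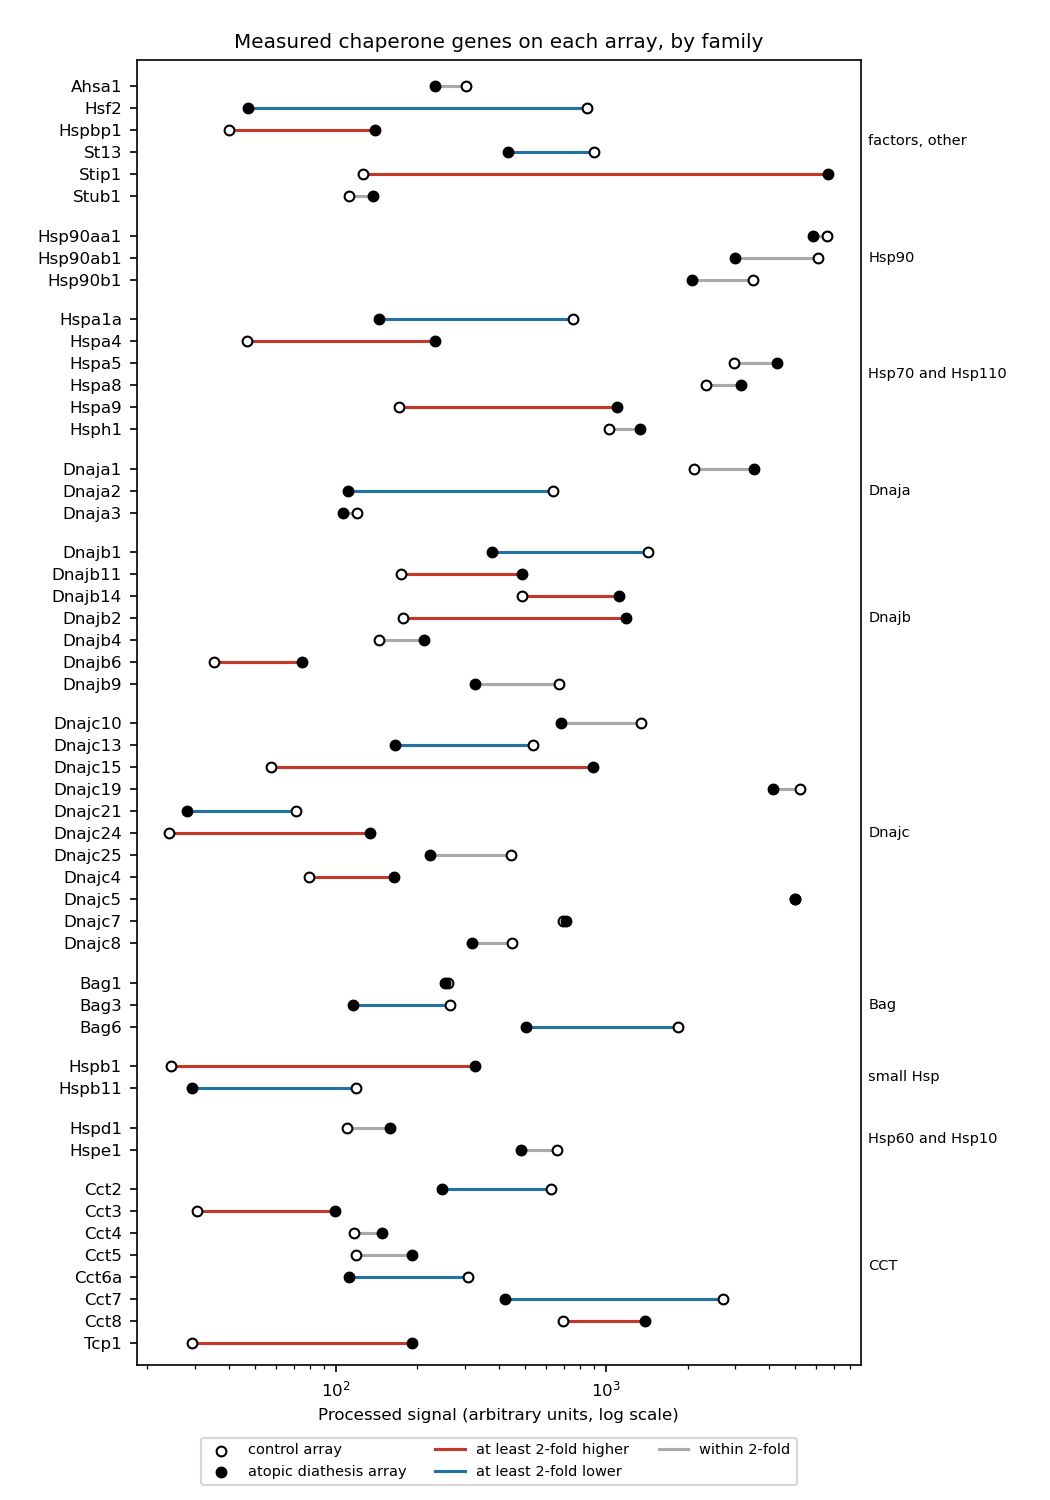
Processed signal of each measured chaperone gene (log axis, arbitrary units) on the control array (open circles) and the atopic diathesis array (filled circles), grouped by family; red, blue and grey lines mark genes at least 2-fold higher, at least 2-fold lower and within 2-fold. Red and blue lines occur side by side in most families, with Stip1 spanning 126 to 6627 and Hsf2 spanning 851 to 47.1, while the 3 Hsp90 genes stay grey and bright.

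How often a gene lay past 2-fold differed between classes of brightness, and over all measured genes the share was highest in the middle class. All 8 members with a geometric mean signal under 100 were past 2-fold, 6 of them higher, where 30.7% of all genes in that class were. Of the same 8, 4 were past 2-fold with normexp and 3 with uncorrected signals, beside 10.8% and 7.98% of all genes of the class. From 100 to 1000 it was 19 of 33 members (57.6%, beside 41.7%). At 1000 or more it was 1 of 10 (10%, beside 14.1%), the exception being Cct7. The bright genes Hsp90aa1, Hsp90ab1, Hsp90b1, Hspa5, Hspa8, Hsph1, Dnaja1, Dnajc5 and Dnajc19 were within 2-fold on the main scale. On the 75th percentile scale Hsp90ab1 read -1.50 and Hsp90b1 -1.22.

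**Figure D2:**
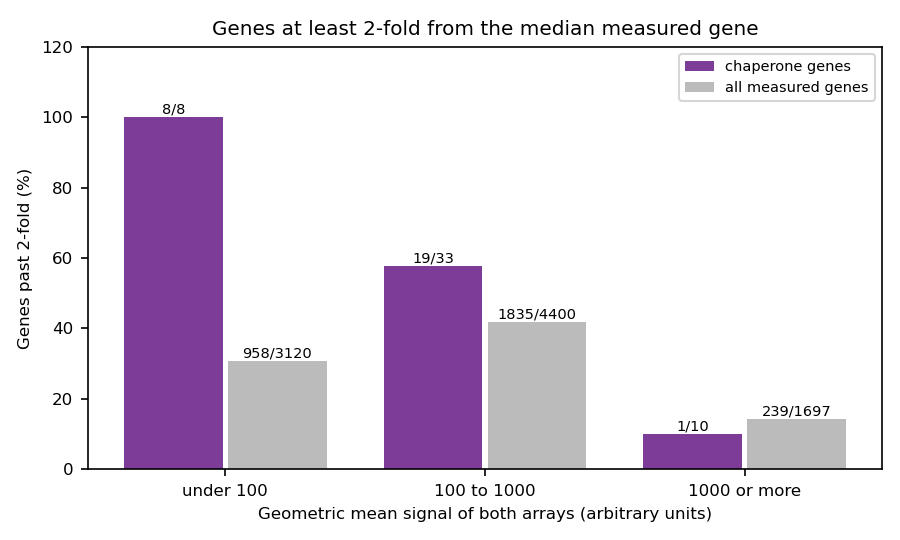
Percentage of genes past 2-fold among the chaperone genes (purple) and among all measured genes (grey), by the geometric mean signal of both arrays; counts stand above the bars. The chaperone bars fall from 8 of 8 in the dimmest class (4 of 8 with normexp, which is not drawn) to 1 of 10 in the brightest.

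The heat shock factors gave opposite readings. Hsf1, the main activator of the heat shock response, was not above background in control (signal 4.49) and read 170 in atopic diathesis microglia, a difference of at least 8.78-fold. Of all genes found above background only on the atopic diathesis array, 59.2% had a bound of at least 2-fold. The share with a bound as large as that of Hsf1 was not computed. Hsf2, a related factor that can pair with Hsf1, read 851 in control and 47.1 in atopic diathesis, a log2 difference of -4.14 or 17.7-fold lower. It was the lowest value of the module. Each rests on a single probe. The Hsf2 probe lies at chr10:57232832-57232891 (mm9, plus strand), and the Stip1 probe, which gave the highest value of the module, at chr19:7095433-7095492 (minus strand). The first 30 of the 60 bases of each, shown because the extremes of the module rest on them, are as the files list them:
Hsf2: gtattgcagtatgggaggaatatgatgctt
Stip1: tctttatatttatacatgcctacaaggaag

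Adaptors and regulators around Hsp70 and Hsp90 lay on both sides of the median gene. Stip1, which carries clients from Hsp70 to Hsp90, read 126 in control and 6627 in atopic diathesis, 54.0-fold higher (5.76). Hspbp1, a nucleotide exchange factor of Hsp70, read 40.2 and 139, 3.53-fold higher (1.82). St13, which steadies the bound state of Hsp70, read 902 and 433, just past 2-fold lower (-1.02), and it lay at -0.83 in the deposited series table. Ahsa1, the activator of the Hsp90 ATPase, was at -0.35 and the ubiquitin ligase Stub1 at 0.33, both within 2-fold.

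The Hsp90 genes themselves were bright on both arrays. The inducible cytosolic form Hsp90aa1 read 6547 and 5830 (-0.13), the constitutive form Hsp90ab1 6101 and 2987 (-1.0, just short of 2-fold) and the endoplasmic reticulum form Hsp90b1 3493 and 2070 (-0.72). All 3 lay below the median gene on the main scale, but Hsp90aa1 read 0.02 in the deposited series table.

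Among the Hsp70 and Hsp110 genes 6 of 13 were measured, with 2 higher and 1 lower. Hspa9, the Hsp70 of mitochondria, read 171 and 1094, 6.55-fold higher (2.71). The stress-inducible Hspa1a read 756 and 145, 5.10-fold lower (-2.35). The array has no probe named for Hspa1b, its near-identical copy, so the reading cannot be assigned to Hspa1a alone. The constitutive Hspa8 (0.47), the endoplasmic reticulum Hspa5 (0.56) and the Hsp110 gene Hsph1 (0.41) were within 2-fold. Hspa4l, another Hsp110 gene, was above background in control only (60.2 against 6.76), at least 2.96-fold lower. Of all genes found above background only on the control array, 51.1% had a bound of at least 2-fold. The share with a bound as large as that of Hspa4l was not computed. Hspa13 was also above background in control only, with 26.0 and 21.1, and Hspa2, Hspa1l, Hspa12a, Hspa12b and Hspa14 on neither array.

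Hspa4, an Hsp110 gene, came out 5.09-fold higher (2.35), but its probes did not agree. The most upstream of 3, at chr11:53075085-53075144 (mm9, minus strand), read 32.6 and 806, a log2 difference of 4.66. The middle one, at chr11:53073594-53073653, read 67.0 and 67.2 (0.04). The one nearest the 3′ end, at chr11:53073347-53073406, read 73.8 in control and 22.2 in atopic diathesis, where it did not count as above background. So the value for Hspa4 rests on 1 probe. The first 30 bases of the 3 probes, from upstream to downstream, show that they read different parts of the transcript:
Hspa4 upstream probe: caagaagcttcctgagatggacattgattg
Hspa4 middle probe: tatgcaactgactgtccttaatgaagaact
Hspa4 downstream probe: aactctaggtcacattcttacactaagaaa

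J-domain proteins of classes a and b often work with cytosolic Hsp70. Of the 4 Dnaja genes 3 were measured: Dnaja1 read 2117 and 3527 (0.77), Dnaja3 119 and 106 (-0.14), and Dnaja2 636 and 111, 5.61-fold lower (-2.49). Among the Dnajb genes 7 of 13 were measured, 4 higher and 1 lower, with a median of 1.1. Dnajb2, a neuronal and ubiquitin-linked J protein, read 176 and 1181, 6.85-fold higher (2.78). Dnajb11, a partner of Hspa5 in the endoplasmic reticulum, read 175 and 487 (1.51), and the membrane-anchored Dnajb14 487 and 1118 (1.23). Dnajb6, which keeps aggregation-prone proteins soluble, averaged 35.5 and 74.6 over 3 probes (1.1), which spread from 0.53 to 1.60. The lowest of the 3 shares a run of 51 bases with another that gave 1.18. The lower gene was Dnajb1, the main stress-inducible partner of Hspa1a, with 1428 and 377, 3.70-fold lower (-1.89). Dnajb4 (0.58) and Dnajb9 (-1.0, just short of 2-fold) were within 2-fold. Dnaja4 was above background in atopic diathesis only (20.6 and 32.2) and Dnajb5 in control only (with a control signal of 24.6), with bounds of 1.60-fold and 1.21-fold relative to the median gene, both short of 2-fold, and the other 5 Dnajb genes on neither array.

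The Dnajc class is the most varied in function, and 11 of its 28 genes were measured, 3 higher and 2 lower, with a median of -0.30. Dnajc15, a J protein of the mitochondrial import motor, read 57.5 and 897, 16.0-fold higher (4.0). Dnajc24, needed to make the diphthamide residue of a translation factor, read 24.2 and 134 (2.50), close to background in control. Dnajc4 read 79.5 and 163 (1.07). Dnajc13, an endosomal protein, read 537 and 165 (-1.67), and Dnajc21, a ribosome assembly factor, 70.9 and 28.1 (-1.30). Dnajc5, the cysteine string protein of secretory vesicles, was nearly equal at 4992 and 4982. Within 2-fold as well, Dnajc7, a J protein that binds both Hsp70 and Hsp90, was at 0.07, Dnajc8 at -0.45, Dnajc10 at -0.95, Dnajc19 at -0.30 and Dnajc25 at -0.96. There were 4 more that exceeded background in atopic diathesis alone. Dnajc9, a histone-handling J protein, read 10.2 and 207, at least 10.7-fold higher, Dnajc30 of mitochondria at least 5.12-fold and Dnajc14 at least 4.17-fold, while the bound for Dnajc12 was 1.52. In control only there were 3: Dnajc16 read 131 and 7.43, at least 6.43-fold lower, the ribosome-associated Dnajc2 at least 6.14-fold, and Dnajc17 reached a bound of 1.12. The other 10 Dnajc genes were above background on neither array.

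Of the 6 Bag genes 3 were measured, and 2 were lower. Bag6, which escorts membrane proteins and defective chains, read 1849 and 504, 3.58-fold lower (-1.84). Bag3, a stress-inducible guide to selective autophagy, read 264 and 115, 2.23-fold lower (-1.16). Bag1 was level on both of its probes, which share a run of 38 bases and are no separate readings (259 and 253 on average). Bag5 was above background in atopic diathesis only, at least 3.43-fold higher, with a second probe above background on neither array, as were the probes of Bag2 and Bag4.

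Small heat shock proteins hold unfolded proteins without using ATP, and most were undetected. Hspb1 read 24.5 and 328, 13.7-fold higher (3.77), with the control signal near the lowest one well above background, 19.8. Hspb6 read 7.22 and 43.1, at least 2.23-fold higher. Hspb2, Hspb3, Hspb7, Hspb8 and Hspb9 were above background on neither array. Hspb11, which despite its name is a subunit of the intraflagellar transport machinery, read 119 and 29.2 (-1.99). Over all 94 genes, 8 were above background in atopic diathesis only (8.51%, beside 8.06% of all gene names), 6 in control only (6.38%, beside 4.13%) and 29 on neither array.

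The CCT complex is built from 8 different subunits in equal numbers, and the readings of their genes did not move together. All 8 were measured. Tcp1, the alpha subunit, read 29.2 and 191, 6.68-fold higher (2.74), followed by Cct3 with 30.6 and 99.5 (1.73) and Cct8 with 691 and 1397 (1.05). Cct7 read 2705 and 421, 6.28-fold lower (-2.65), Cct6a 307 and 112 (-1.43) and Cct2 626 and 246 (-1.31). Cct4 (0.38) and Cct5 (0.73) were within 2-fold. Cct8 fell short of 2-fold, at 0.55, on the 75th percentile scale, and Cct3 read 0.74 from uncorrected signals. Each subunit rests on 1 probe, and that of Cct2 shares a run of at least 25 bases with a probe of another gene. The testis form Cct6b and Cct8l1 were above background on neither array.

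Sorted by compartment, a grouping made after the values were seen, 6 of 8 mitochondrial members were measured, with 2 higher and a median of 0.21. Besides the higher genes Dnajc15 and Hspa9, 4 lay within 2-fold: the chaperonin Hspd1 (0.56), its lid Hspe1 (-0.41), Dnaja3 (-0.14) and Dnajc19 (-0.30), which like Dnajc15 serves the import motor. Of 8 members placed in the endoplasmic reticulum 5 were measured, and among these Dnajb11 alone was past 2-fold. The others were Hspa5 (0.56), Hsp90b1 (-0.72), Dnajc10 (-0.95) and Dnajb9 (-1.0). The grouping left out the membrane-anchored Dnajb14, which was past 2-fold at 1.23.

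Hspd1 and Hspe1 lie head to head and share 1 promoter. RefSeq promoters (GRCm38.p6, 250 bases before to 50 after a start site) were found for 76 of the 94 genes. The 18 without one could not be searched, among them Hsp90aa1, Hsp90ab1, Hspa8, Hspa9, Hsf1 and St13. The promoters found were searched on both strands for the heat shock element in its strict form of 3 units, GAANNTTCNNGAA or TTCNNGAANNTTC. It stood in those of 4 members (5.26%), Dnajb6, Hspd1, Hspe1 and Hsph1, and of 0.662% of all 27025 genes in the table. In the listing for Hspd1 and Hspe1 it is the same stretch, chr1:55088047-55088088, read from opposite strands. The element of Hsph1 lies after the start site and is not shown. The other stretches are shown, with the element in capitals, because members with it could be set beside those without:
Hspe1 (plus strand): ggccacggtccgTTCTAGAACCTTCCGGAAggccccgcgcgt
Hspd1 (minus strand): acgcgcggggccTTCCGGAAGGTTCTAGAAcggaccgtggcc
Dnajb6 (plus strand, chr5:29735840-29735876): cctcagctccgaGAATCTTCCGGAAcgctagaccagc

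The capitals in the first pair are 2 overlapping copies. All 4 members with the element were measured, 1 higher (Dnajb6) and 3 within 2-fold. Dnajb6 was itself within 2-fold under 6 of 13 alternatives. Of the 40 measured members with a promoter that lacks it, 13 were higher, 12 lower and 15 within 2-fold. A looser form of 2 units, GAANNTTC or TTCNNGAA, which the strict form contains, was in 27.6% of members and 17% of all genes. The promoter of Hspa1a has it once and that of Hspb1 in 2 copies, and these genes read in opposite directions:
Hspa1a (minus strand, chr17:34972241-34972272): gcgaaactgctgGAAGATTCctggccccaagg
Hspb1 (plus strand, chr5:135887790-135887841): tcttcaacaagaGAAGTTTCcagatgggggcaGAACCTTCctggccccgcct

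Neither form was found in the windows of Stip1, Dnajc15, Hsf2, Cct7, Dnaja2 and Dnajb1. The ER stress element, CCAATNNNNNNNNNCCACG, was in the promoters of Hspa5, Hsp90b1 and Dnajc3 (3.95% of members, 0.137% of all genes). A copy of each is shown, with the element in capitals. Hspa5 and Hsp90b1 were measured, both within 2-fold, and Dnajc3 was above background on neither array:
Hspa5 (plus strand, chr2:34772013-34772055): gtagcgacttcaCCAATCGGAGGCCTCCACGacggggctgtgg
Hsp90b1 (minus strand, chr10:86705626-86705668): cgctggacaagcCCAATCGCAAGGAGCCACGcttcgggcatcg
Dnajc3 (plus strand, chr14:118937815-118937857): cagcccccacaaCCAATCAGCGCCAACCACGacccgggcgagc

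Several members have probes that read different parts of 1 gene, and these show how far a value depends on the probe. Hspb11 and Dnaja2, called lower above, each have a further probe nearer the 3′ end that was above background in atopic diathesis only. For Hspb11 it read 4.11 and 257, and for Dnaja2 6.86 and 81.8. With these probes included, Hspb11 read 2.0 and Dnaja2 0.56, on the other side of the median gene. The first 30 bases of the opposed probes are:
Hspb11 upstream probe (lower): tttattttatatgtgggttttgcctacatg
Hspb11 downstream probe (higher): gggactaacagtctcaagtcttccttagta
Dnaja2 upstream probe (lower): agaattcatagcctgtatctatcatttaga
Dnaja2 downstream probe (higher): ccacaacactttaagcctaagcaatgcagt

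Dnajb9 and Dnajc19 have the reverse layout. The probe near the 3′ end read lower (-1.0 for Dnajb9 and -0.30 for Dnajc19), while the upstream probe was above background in atopic diathesis only, at 20.6 and 137 for Dnajb9 and at 8.74 and 76.5 for Dnajc19. Where members had measured probes at least 100 bases apart on the genome, the upstream probe gave the higher difference in 5 of 6. For Hspa8 it was 0.99 upstream against 0.02 at the 3′ end, and for Hsph1 it was 0.72 against 0.10. Hspe1 gave 0.22 against -0.81, and Dnajc8 was the exception with -0.91 against -0.05. Over all 1164 such genes of the array, the upstream probe gave the higher difference in 46.6%, with a median of -0.11 for upstream minus 3′ end.

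**Figure D3:**
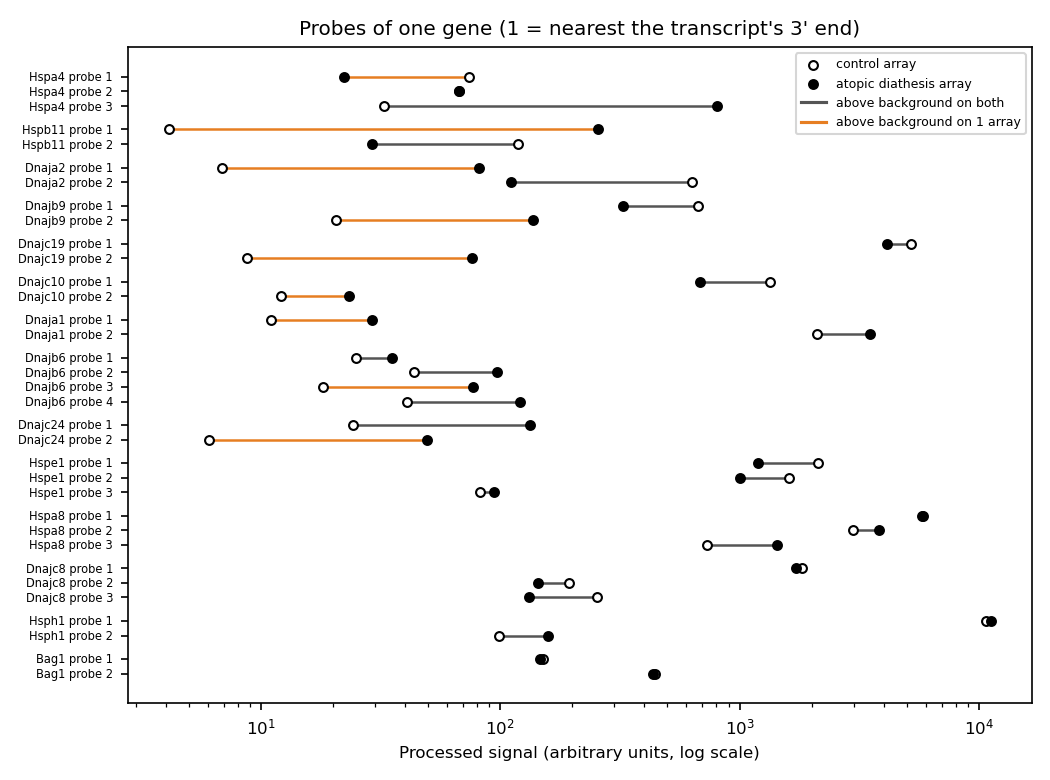
Processed signal (log axis, arbitrary units) of single probes of 14 chaperone genes on the control array (open circles) and the atopic diathesis array (filled circles); probe 1 of a gene lies nearest the 3′ end, and orange lines mark probes above background on 1 array only. Probes of Hspa4, Hspb11, Dnaja2 and Dnajb9 run in opposite directions, whereas for each Bag1 probe the circles of both arrays overlie each other.

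The wider chaperone system also lay on both sides. In a list of 63 genes of that system, of which 1 belongs to the module, 35 were measured. Of these, 12 were higher and 7 lower, with a median of 0.30. Over all measured genes, 17.3% were higher and 15.6% lower. Clpb, a mitochondrial protein disaggregase, read 32.7 and 1898 (5.89), and Fkbp4, an Hsp90 co-chaperone of steroid receptors, 28.9 and 980 (5.11). Ahsa2, a relative of Ahsa1, read 33.5 and 222 (2.76), and Sil1, the exchange factor of Hspa5, 21.7 and 138 (2.71). Among genes measured on both arrays these 4 had the largest differences of the list, and all had a control signal below 100. In the same list, 8 of 63 genes were above background in atopic diathesis only and 4 in control only. Over all gene names these shares were 8.06% and 4.13%. Those in control only included Bbs12 (524 and 8.53) and Sec63 (280 and 11.7). Further Hsp90 partners, named after their values were seen, were Cdc37 (1.44), Chordc1 (-1.52) and Ptges3 (-0.99). In a list of 26 genes of the unfolded protein response, of which 4 belong to the module, 19 were measured. There, 5 were higher and 3 lower, with a median of 0.11. Herpud1, Sdf2l1 and Hyou1 stand in both lists. Among the 19 measured genes Manf (2.33), Herpud1 (1.74) and Sdf2l1 (1.54) were the highest and Edem1 (-2.02) the lowest. Syvn1 (255 and 4.22) and Creld2 (32.0 and 15.3) were above background in control only. Hyou1 (4.94 and 32.0) was so in atopic diathesis only.

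Immediate early genes, which cell isolation can induce as it can heat shock genes, were mostly bright on both arrays. Ier5 was dim on both (25.1 and 26.5), and Junb read 118 and 28.4. Of 19 genes 17 were measured and 16 lay within 2-fold, with a median of -0.32. The others, Fosl2 (13.7 and 663) and Nr4a1 (4.33 and 24.1), were above background in atopic diathesis only. Egr1 read 90281 and 53199 (-0.73), Ier2 was at -0.93 and Ier3 at -0.94, and Junb was lower at -2.02. The part of isolation in these values was not tested.

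Of the 28 members past 2-fold, 23 stayed past it in the same direction under 4 other scalings and in the deposited series table. Under all 13 alternatives, which also changed the background correction, the filter and the probes used, 14 did so: Stip1, Dnajc15, Hspb1, Dnajb2, Tcp1, Hspa9 and Dnajc24 on the higher side, and Hsf2, Cct7, Hspa1a, Dnajb1, Dnajc13, Cct6a and Cct2 on the lower side. Cct2 had a value under 12 of the 13. Apart from Dnajb2 and Dnajc24, these 14 genes have 1 probe each. For them the background filters and probe choices could not move the value, so those settings are no check.

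**Figure D4:**
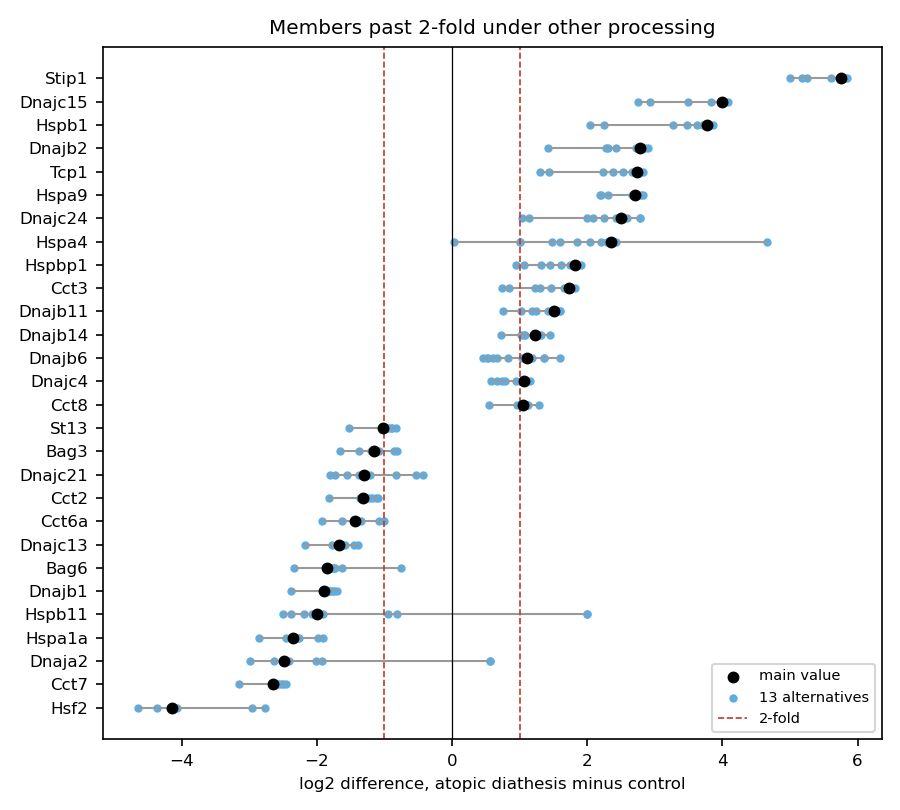
log2 difference (atopic diathesis minus control) of the 28 members past 2-fold, with the main value in black, 13 alternatives in blue and dashed lines at 2-fold. Points of Hspb11 and Dnaja2 cross to the other side of 0, and those of Hspa4 run from 0.04 to 4.66 depending on the probe.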

How the data were processed

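The deposited scanner files hold fluorescence intensity per spot from 1-colour Agilent arrays, made by the authors with Feature Extraction 10.7.1.1 per the file headers (9.5.1.1 per the submitters' processing notes) and already background-subtracted. RNA was amplified with a low-input kit, per the labels' protocols. The deposited series table holds normalized intensity with equal sorted values in both columns. Scale and direction are clear, but its normalization is not stated. Control spots (3671) and outlier spots (136 and 122) were left out, and spots of 1 probe were averaged. Probes numbered 55681. Gene values are means of log2 processed signal over probes well above background on both arrays, minus the median of the 9217 measured genes. For a gene above background on 1 array, the bound compares its brightest probe with that probe on the other array or with the faintest detected signal there (19.8 in control, 19.9 in atopic diathesis), whichever is larger. Names came from RefSeq accessions (GRCm38.p6), matched for 27235 probes, otherwise from the files. Probe coordinates are on mm9. The members and lists were chosen with earlier results of these data known. All members may be named, and of each other list the 4 measured genes with the largest differences. Other genes of these lists were named after the values were seen. Alternatives used other scalings, normexp (limma 3.58.1, offset 50), uncorrected signals, the series table, other filters and other probe choices. The calculation was tested on simulated data. Both arrays share a slide, and their places on it cannot be told apart from the groups.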

Additional observations from a re-analysis of the deposited data

How the results depend on the processing

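Counts of members at least 2-fold higher (main value 15) and lower (13) and their median (0.03) were recomputed under 13 alternatives, of which the use of the 3′-most probe alone was added after the data were seen. The median moved to -0.47 on the 75th percentile of all probes and to 0.47 when detection on either array sufficed. The latter gave 24 higher of 65 members, and no background filter 30 of 94. Higher genes were 60% and 66.7% of the members past 2-fold, beside 62.5% and 68.1% over all genes. All other counts stayed within 1.5 times the main ones. Of 662 member values under alternatives, 112 moved by more than the spot interval of ±0.40. The sign changed in 23 values of 14 genes, 12 of them within 2-fold on the main scale, such as Dnajb9 (to 0.88) and Dnajc19 (to 1.43). The 2 past 2-fold were Dnaja2, which read 0.56, and Hspb11, which read 2.0, each both where detection on either array sufficed and with no filter, because a further probe then entered. Hspa4 read 0.04 on its 3′-most measured probe and 4.66 on its brightest. Normexp left 12 higher and 10 lower, and uncorrected signals 10 and 10 (43.1% and 39.2% of members past 2-fold, beside 21.4% and 19.3% of all genes). No paired analysis was possible because each group has 1 array. Signal over background limits dim genes: under 100, spot error alone spans ±0.58.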
